A study of Mus musculus with 4 samples.

Results

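The phagocyte NADPH oxidase genes described here are 8 listed mouse genes, Cybb, Cyba, Ncf1, Ncf4, Rac1, Rac2, Sod2 and Hvcn1, which were matched by symbol to the Entrez identifiers of the deposited tables. They are 8 of the 16739 genes with a value in any library, all 8 had reads in all 4 libraries, and all 8 passed the filter on low counts that left 11302 genes. The members were listed by name, with no rule on their values, but they were chosen with earlier results of these data known. The libraries came from sorted tumor-associated macrophages (TAMs), 2 labelled WT and 2 labelled Trim24-deficient. All mice were of the C57BL/6 strain, were 6 to 8 weeks old when B16-F10 melanoma cells were injected under the skin of the abdomen, and gave CD45+CD11b+F4/80+ cells by flow sorting 16 days later. The second group carried floxed Trim24 alleles with Cre recombinase driven from the lysozyme M locus (Trim24 flox/flox LysM-Cre), which acts in macrophages, monocytes and neutrophils, and the labels give its genotype as Trim24-/-. The controls were WT littermates, and whether they carried Cre or floxed alleles is not given in the sources used here.

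The phagocyte NADPH oxidase moves electrons from NADPH in the cytosol across a membrane onto oxygen, which makes superoxide in the phagosome or outside the cell. Its catalytic part is a membrane heterodimer of gp91phox (Nox2, encoded by Cybb) and p22phox (Cyba), which is silent until cytosolic proteins, among them p47phox (Ncf1) and p40phox (Ncf4), and a GTP-bound Rac join it. The proton channel Hvcn1 carries the compensating positive charge out of the cell, and superoxide dismutases turn superoxide into hydrogen peroxide. Sod2, the manganese enzyme of the mitochondrial matrix, is not a subunit of the oxidase, and it is known as a gene induced by inflammatory signals.

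The libraries held 4476122 to 5172407 expected counts, so that 3 counts corresponded to 0.606 to 0.639 CPM, the floor set by counting error alone. CPM are expected counts relative to the library total after edgeR's TMM scaling, and they serve to compare 1 gene between libraries. FPKM, which the authors deposited, are also divided by transcript length and are used here to compare genes with each other. Trim24 itself did not part the groups. WT replicates 1 and 2 had 5.86 and 2.08 CPM of it, and the Trim24-deficient-labelled libraries, replicates 1 and 2, had 3.41 and 0.411 CPM. The log2 fold change of -1.06 had a standard error of 0.824 (adjusted p = 0.635, edgeR's quasi-likelihood test), and these gene-level values do not separate the deleted exons from the rest. Sex-linked transcripts followed the labels, with Xist at 10.9 and 6.46 CPM in WT and 437 and 256 CPM in the Trim24-deficient-labelled libraries and with the Y-linked Ddx3y at 73.7 and 102 CPM against 0.426 and 0.411 CPM. The study's methods describe the mice as matched for sex. Genotype and the sex-linked difference cannot be told apart for any gene below. The markers of the sort were present, with Adgre1 (F4/80) at 1038 to 1304 CPM, Itgam (CD11b) at 489 to 1172 CPM and Ptprc (CD45) at 534 to 796 CPM across the 4 libraries. Labels do not say whether a library is from 1 mouse or a pool, so p-values measure the spread between these libraries.

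The promoter windows of Cybb, Cyba, Ncf1 and Sod2 are shown because they are the 4 members with an entry in the RefSeq promoter table (GRCm38.p6), and because the levels of these genes are compared below. Each runs 5′ to 3′ on the gene's strand from 250 bases before to 50 bases after the annotated start. Capitals mark matches, on either strand, to a PU.1-type motif, a GC box or a CCAAT box, whose letters are given beside the results, and no capital stretch belongs to more than 1 motif.
Cybb, chrX:9469275-9469574, minus strand: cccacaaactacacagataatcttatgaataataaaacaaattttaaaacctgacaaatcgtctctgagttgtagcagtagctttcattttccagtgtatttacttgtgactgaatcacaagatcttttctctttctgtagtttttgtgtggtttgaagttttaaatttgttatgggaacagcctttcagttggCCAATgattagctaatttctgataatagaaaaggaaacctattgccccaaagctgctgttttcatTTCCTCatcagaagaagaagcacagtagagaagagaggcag
Cyba, chr8:122432891-122433190, minus strand: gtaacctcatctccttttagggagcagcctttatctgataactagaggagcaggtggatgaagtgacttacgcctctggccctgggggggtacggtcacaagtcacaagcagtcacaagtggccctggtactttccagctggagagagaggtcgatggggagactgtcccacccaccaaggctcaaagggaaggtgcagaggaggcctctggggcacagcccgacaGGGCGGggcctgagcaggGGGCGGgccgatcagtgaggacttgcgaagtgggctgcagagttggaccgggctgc
Ncf1, chr5:134229576-134229875, minus strand: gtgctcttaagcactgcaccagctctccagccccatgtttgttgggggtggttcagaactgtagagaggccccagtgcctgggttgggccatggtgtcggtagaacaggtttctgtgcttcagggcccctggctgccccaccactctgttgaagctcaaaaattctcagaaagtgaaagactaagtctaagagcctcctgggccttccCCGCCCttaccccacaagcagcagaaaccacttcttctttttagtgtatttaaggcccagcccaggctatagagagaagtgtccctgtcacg
Sod2, chr17:13007589-13007888, plus strand: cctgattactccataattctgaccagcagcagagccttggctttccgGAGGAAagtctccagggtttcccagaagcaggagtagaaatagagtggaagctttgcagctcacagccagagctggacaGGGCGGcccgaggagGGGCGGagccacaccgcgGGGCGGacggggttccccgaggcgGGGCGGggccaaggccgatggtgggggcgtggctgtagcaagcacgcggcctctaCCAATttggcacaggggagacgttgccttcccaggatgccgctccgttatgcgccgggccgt
The Cybb window lies within the outermost bounds of the gene given below, at a start inside them. It was the richest in A and T, with 35.3% G or C, against 54% in Ncf1, 60.7% in Cyba, 64.3% in Sod2 and a median of 52.7% over all 32851 windows of this length. Sod2 held 4 GC boxes (GGGCGG) upstream of its start, Cyba held 2 and Ncf1 held 1 on the opposite strand, a motif present in 35.7% of all windows. PU.1 is a transcription factor of myeloid cells. Its motif (GAGGAA) stood in Cybb from base 10 after the start, on the opposite strand, and in Sod2 from base -203, and 28.3% of all windows have it. CCAAT boxes (the letters of the name) stood in Cybb from base -56 and in Sod2 from base -12, a motif in 37.4% of all windows. Also searched were an NF-kappaB-type motif (GGG and TTTCC with any 2 bases between), found in 1.63% of all windows, a STAT6-type motif (TTC and GAA with any 4 bases between), found in 6.95%, and the TATA box (TATAAA), found in 13.6%. None of these strings of letters was in the 4 windows. Looser forms of these motifs were not searched, so other NF-kappaB-like letters may be present. These are matches of letters and not sites of binding, and the GC and CCAAT boxes were chosen with the sequences in view.

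All 4 libraries held abundant transcript of the membrane heterodimer, and by length-scaled level Cyba led the oxidase genes by far. Cyba had 1370 and 1436 FPKM in WT replicates 1 and 2 and 1649 and 2445 FPKM in the Trim24-deficient-labelled replicates 1 and 2. On its mean over the libraries it ranked 29 of the 16739 genes. Rac1 was next in every library, with 396 and 341 FPKM in WT and 383 and 212 FPKM in the Trim24-deficient-labelled libraries. Cybb, at 152, 166, 236 and 166 FPKM in the same order of libraries, and Rac2, at 163, 131, 207 and 169 FPKM, exchanged places between libraries and were not separated beyond their spread. The cytosolic subunits among the members were lower. Ncf4 had 74.4, 89.8, 99.9 and 121 FPKM and took rank 5 in all 4 libraries, and Ncf1 had 57.6, 64.1, 79.6 and 63.7 FPKM. Sod2 ranged from 43 to 92.1 FPKM and overlapped Ncf1. Hvcn1 was the lowest of the genes in every library, between 21.6 and 25.1 FPKM. Expressed per library, the Cyba level exceeded that of its partner Cybb 9.02-fold and 8.64-fold in WT and 6.99-fold and 14.8-fold in the Trim24-deficient-labelled libraries. The groups overlapped in this ratio, and the library labelled Trim24-deficient replicate 2 had the highest value.

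**Figure D1:**
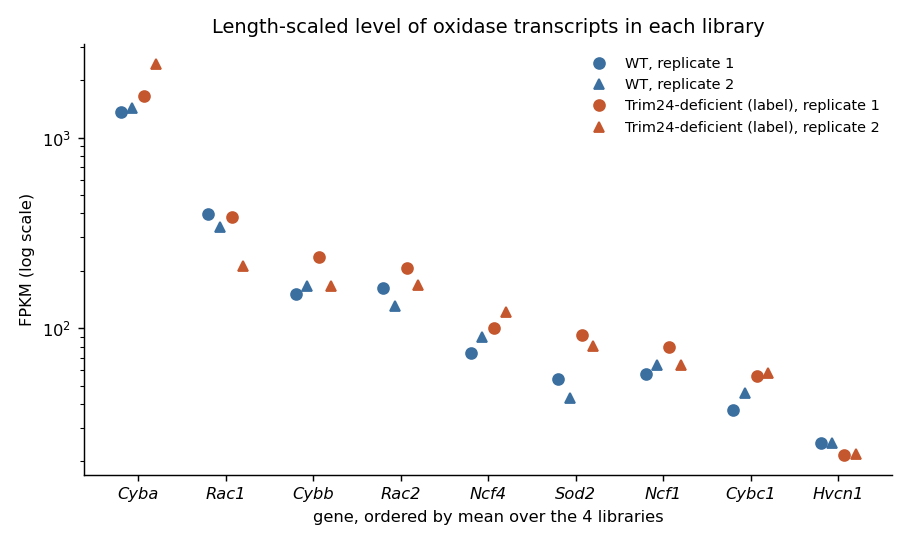
Length-scaled level (FPKM, log axis) of the 8 members with Cybc1, 1 point per library, circles for replicate 1 and triangles for replicate 2, WT in blue and libraries labelled Trim24-deficient in orange. Cyba lies highest, between 1370 and 2445 FPKM, and Hvcn1 lowest, between 21.6 and 25.1 FPKM, while Cybb and Rac2 overlap.

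Of the 8 members, 0 differed more than 1.5-fold between the labels at an FDR under 0.05 (edgeR's quasi-likelihood test, Benjamini-Hochberg adjustment over 11302 genes), where 0.372% of all tested genes did, 0.292% upwards and 0.0796% downwards. Without adjustment 3 members, Sod2, Ncf4 and Cyba, had p under 0.05, each of them higher in the Trim24-deficient-labelled libraries. Over all tested genes 12.2% had such a p, 6.58% upwards and 5.62% downwards. DESeq2 called 1 member, Sod2, where it called 1.38% of genes, and limma on log2(FPKM + 1) called 0 of the members and 0.207% of genes. In 6 of the 8, both libraries labelled Trim24-deficient lay above both WT libraries in CPM, a pattern seen in 21.4% of all tested genes. In 1, Hvcn1, both lay below, as in 23% of all tested genes, and in Rac1 the groups overlapped. The median log2 fold change of the 8 was 0.49, against -0.01 over all tested genes. In libraries scaled by their totals alone, which moved the median of all genes to -0.15, the median of the members was 0.34. The calls depended on single libraries. Without the library labelled Trim24-deficient replicate 1, Cyba, Ncf4 and Sod2 were called, in a fit that called 3.46% of all genes, and without replicate 2 of that label Sod2 was called, in a fit that called 5.54%. In these fits the lone library of a group is assumed to vary as those of the other group.

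**Figure D2:**
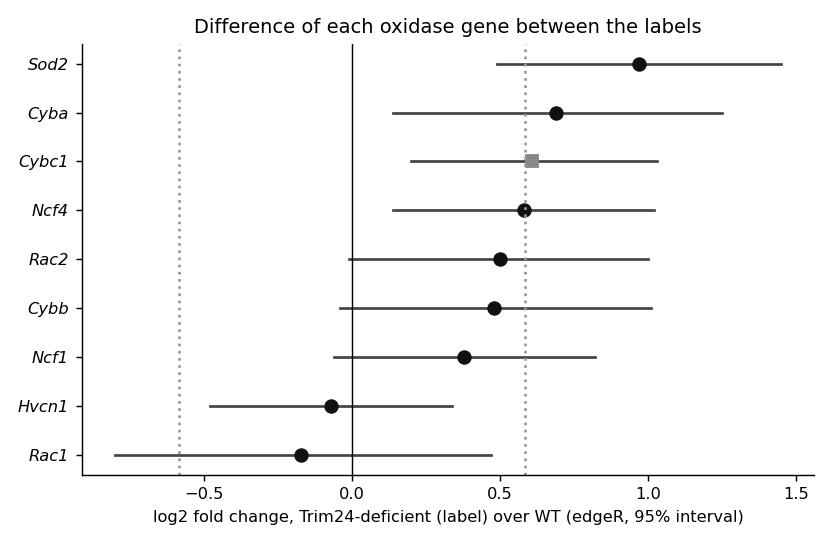
Log2 fold change of each gene, libraries labelled Trim24-deficient over WT, with 95% intervals from edgeR's quasi-likelihood fit (circles, the 8 members; square, Cybc1; dotted lines, a fold change of 1.5). The intervals of Sod2, Cyba, Ncf4 and Cybc1 lie above 0 before adjustment, and those of Hvcn1 and Rac1 lie on both sides of it.

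Of the membrane subunits, Cybb (Entrez 13058), the catalytic subunit that holds the hemes and the NADPH site, lies on chromosome X from 9435252 to 9487766. It had 711 and 746 CPM in WT replicates 1 and 2, against 1189 and 848 CPM in the Trim24-deficient-labelled replicates 1 and 2. Replicate 1 of the labelled group stood apart, while replicate 2 was only slightly above the WT libraries. Its log2 fold change, 0.48, had a 95% interval of -0.04 to 1.01 (standard error 0.23, adjusted p = 0.433). In FPKM the groups overlapped, since the library labelled Trim24-deficient replicate 2, at 165.7, was below WT replicate 2, at 166.2. Cybb is X-linked, and the part of the sex-linked difference given above in its values was not tested. The other X-linked genes of the lists used below had log2 fold changes of 0.17 in G6pdx, 0.08 in Prdx4 and -0.55 in Nox1. None of them was called, and Nox1 had only 1.85 to 4.04 CPM. These values do not test that part in Cybb.
Cyba (Entrez 13057), the small membrane partner that stabilizes gp91phox and docks p47phox, lies on chromosome 8 from 122424771 to 122432940. Its level was 989 and 993 CPM in WT, nearly equal, and 1280 and 1926 CPM in the Trim24-deficient-labelled libraries. Both of the latter were above both WT libraries, but the gap between them was wider than that from the lower of them to WT, and the SD was 456 CPM around a mean of 1603 against 2.96 CPM around 991 in WT. This gave a log2 fold change of 0.69 (standard error 0.25, 95% interval 0.14 to 1.25, adjusted p = 0.303), which was 0.37 without the library labelled Trim24-deficient replicate 2 and 0.96 (adjusted p = 0.0201) without replicate 1 of that label. Without WT replicate 1 or 2 it was not called (adjusted p = 0.602 and 0.999). Its transcript is the shortest of the members, at 762 bases, and fold changes over all genes leaned towards short transcripts (Spearman's rho -0.249 across genes, which are not independent). With that trend on length removed the Cyba log2 fold change was 0.56, and that of Cybb was 0.6, so that their order was reversed. In the same fit Sod2 was at 1.03 and Ncf4 at 0.5. Cybc1 (Entrez 217370), an endoplasmic reticulum chaperone needed for a stable gp91phox and p22phox heterodimer, was at 88.6 and 104 CPM in WT and at 145 and 151 CPM in the Trim24-deficient-labelled libraries (log2 fold change 0.61, standard error 0.19, adjusted p = 0.223).

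**Figure D3:**
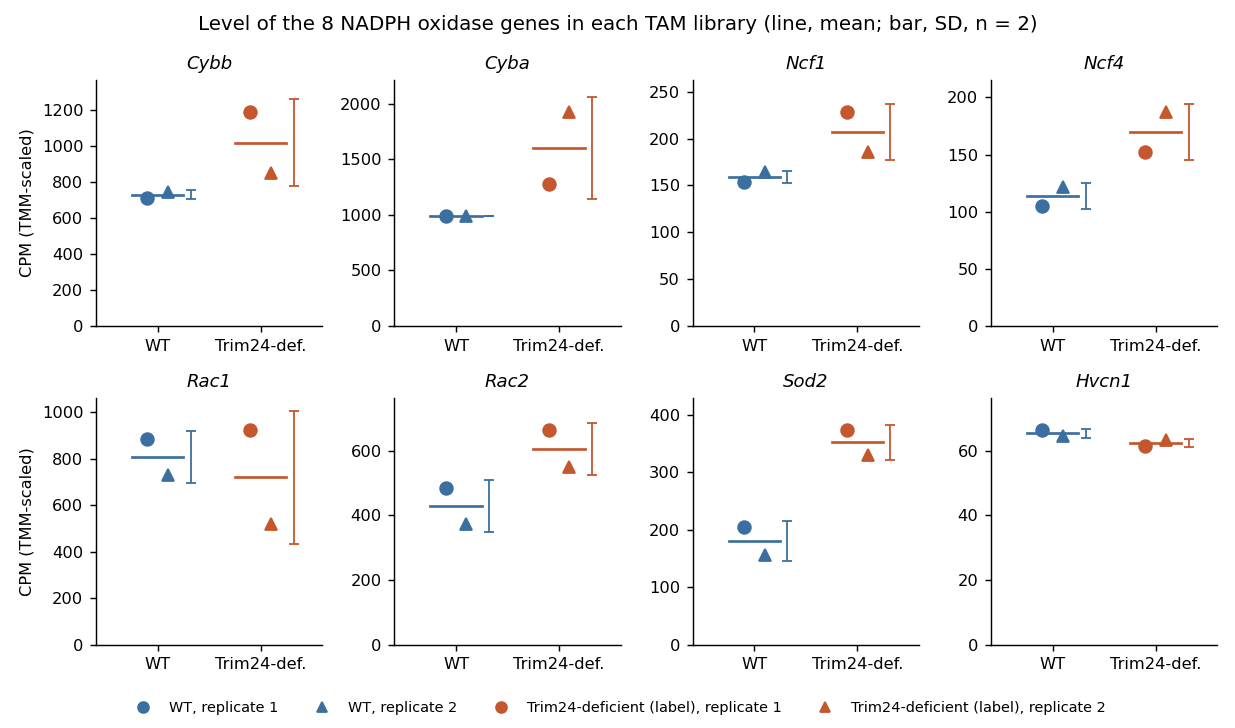
CPM of the 8 members in each library (circles, replicate 1; triangles, replicate 2; horizontal line, mean; bar, SD, n = 2 per group), axes starting at 0. Both labelled libraries lie above both WT libraries in Cybb, Cyba, Ncf1, Ncf4, Rac2 and Sod2 and below them in Hvcn1, and Rac1 overlaps. Cybb is highest in the library labelled Trim24-deficient replicate 1 and Cyba in replicate 2.

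Among the cytosolic subunits, Ncf4 (Entrez 17972) on chromosome 15 from 78244164 to 78262582 encodes p40phox, which binds a phosphoinositide of the phagosome membrane. It was at 105 and 122 CPM in WT and at 153 and 187 CPM in the Trim24-deficient-labelled libraries, so that the groups did not overlap. Its log2 fold change was 0.58 (standard error 0.20, 95% interval 0.14 to 1.02, adjusted p = 0.275), and 0.73 (adjusted p = 0.0401) without the library labelled Trim24-deficient replicate 1. Without replicate 2 of that label it was 0.43 (adjusted p = 0.296), without WT replicate 1 it was 0.50 (0.684) and without WT replicate 2 it was 0.69 (0.999), and it was not called in these 3.
Ncf1 (Entrez 17969), on chromosome 5 from 134220053 to 134229628, encodes p47phox, the organizer whose phosphorylation starts assembly. Its values were 154 and 164 CPM in WT and 229 and 186 CPM in the Trim24-deficient-labelled replicates 1 and 2. As in Cybb, replicate 1 of the labelled group was the highest library. Its log2 fold change of 0.38 did not pass (standard error 0.20, adjusted p = 0.457), and in FPKM the groups overlapped. The ratio of Ncf4 to Ncf1 in FPKM was 1.29 and 1.40 in WT and 1.26 and 1.90 in the Trim24-deficient-labelled libraries. The groups overlapped in this ratio, too.

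The log2 fold changes of the Rac genes had opposite signs over all 4 libraries, and neither passed the test. Rac1 (Entrez 19353), on chromosome 5 from 143505481 to 143528031, encodes the widely expressed Rac GTPase. It was at 884 and 729 CPM in WT and at 921 and 517 CPM in the Trim24-deficient-labelled libraries, which placed the highest and the lowest library in the same group. Its log2 fold change was -0.17 (standard error 0.28, 95% interval -0.80 to 0.47, adjusted p = 0.852) and turned to 0.19 when the library labelled Trim24-deficient replicate 2 was left out.
Rac2 (Entrez 19354), on chromosome 15 from 78559169 to 78572783, encodes the Rac of blood cells. It was at 486 and 373 CPM in WT and at 664 and 550 CPM in the Trim24-deficient-labelled libraries, with no overlap. Its log2 fold change was 0.50, with a standard error of 0.22 (adjusted p = 0.413). In FPKM the summed level of Rac1 and Rac2 was 559 and 472 in WT and 590 and 381 in the Trim24-deficient-labelled libraries, which overlapped. The share of Rac2 in that sum was 29.2% and 27.7% in WT and 35.1% and 44.4% in the Trim24-deficient-labelled libraries, or 28.5% ± 1.01 against 39.7% ± 6.58 (SD, n = 2 each). Both labelled libraries were above both WT libraries in this share, for which the exact permutation test over 2 against 2 libraries cannot go below p = 0.333. RSEM gave whole counts to Rac1 in all 4 libraries and fractional counts to Rac2 (2407.14, 1792.44, 3115.79 and 2676.36). It gives a gene fractional counts where reads match more than 1 gene, so the Rac2 level is less certain. The same holds for Sod2 in all 4 libraries (1012.69, 744.6, 1751.4 and 1610.09) and for Ncf1 in 3 (762.9, 785.8 and 1073.01).

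**Figure D4:**
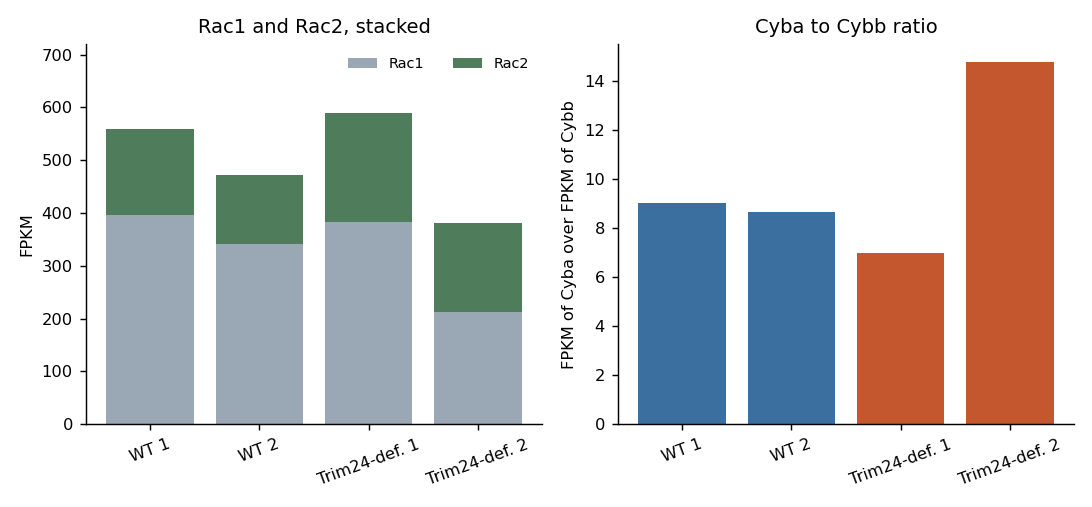
Left, FPKM of Rac1 (grey) and Rac2 (green) stacked for each library. Right, the ratio of Cyba FPKM to Cybb FPKM in each library, WT in blue and libraries labelled Trim24-deficient in orange. The Rac2 share is 27.7% to 29.2% in WT and 35.1% to 44.4% in the Trim24-deficient-labelled libraries, while the Cyba to Cybb ratio has both its lowest value, 6.99, and its highest, 14.8, among the latter.

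Sod2 (Entrez 20656), on chromosome 17 from 13007839 to 13018119, had the largest difference of the members. It was at 205 and 155 CPM in WT and at 373 and 331 CPM in the Trim24-deficient-labelled libraries, or 180 ± 34.9 against 352 ± 29.8 CPM (SD, n = 2 each). The lowest labelled library was well above the highest WT library, and the gap between the groups was wider than the spread within either. At 0.97 on the log2 scale (standard error 0.21, 95% interval 0.49 to 1.45), the difference missed the threshold after adjustment (adjusted p = 0.12, edgeR's quasi-likelihood test). DESeq2 gave 0.98 with an adjusted p of 0.00745. With a library left out in turn the change was 0.78 to 1.20, and it was called without either library labelled Trim24-deficient (adjusted p = 0.0161 without replicate 1 and 0.00254 without replicate 2) but not without WT replicate 1 (0.161) or WT replicate 2 (0.999).
Hvcn1 (Entrez 74096), on chromosome 5 from 122206805 to 122242297, was the steadiest member, at 66.2 and 64.4 CPM in WT and at 61.3 and 63.3 CPM in the Trim24-deficient-labelled libraries. Both labelled libraries lay below both WT libraries, by a margin of about 1 CPM between 64.4 and 63.3. On the log2 scale the difference was -0.07 (standard error 0.18, 95% interval -0.48 to 0.34, adjusted p = 0.914), so a 1.5-fold difference lay outside the interval in either direction.

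How the members varied among themselves was described by centring log2 CPM on each gene's mean. Cybb and Ncf1 had like profiles, with deviations of -0.27, -0.20, 0.48 and -0.01 against -0.23, -0.14, 0.34 and 0.04 over WT replicates 1 and 2 and the Trim24-deficient-labelled replicates 1 and 2. Cyba and Ncf4 instead peaked in replicate 2 of the labelled group, at 0.63 and 0.44. Rac2 and Sod2 were highest in replicate 1 of that group, at 0.39 and 0.57, and lowest in WT replicate 2, at -0.44 and -0.69. By Euclidean distance over the 4 libraries, among 9133 genes whose log2 CPM averaged 3 or more, Ncf1 was the member closest to Cybb (distance 0.162, rank 48), and Rac2 was next (0.354, rank 545). The genes closest to Cybb were Cluap1, Adck2, Insl6, Isg15 and Mocs1 (distances 0.0506 to 0.0736). Those closest to Sod2 were Cdc42ep2, Adora2b, Gpr171, Mmp13 and Prdx5 (0.0444 to 0.0934). With 4 libraries many genes lie this close, and the distance says nothing of a shared function.

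The wider set of proteins that assemble or activate the oxidase, among them Rac exchange factors, kinases, GDP dissociation inhibitors and the arachidonate-binding S100 proteins, had 1 called gene. Of 33 genes on that list, 31 were tested, 1 was called higher in the Trim24-deficient-labelled libraries and 0 lower (edgeR), where 0.292% of all genes were called higher, and the median log2 fold change was 0.13. The called gene was Fgr, a Src-family kinase of myeloid cells, with 48.3 and 49 CPM in WT and 113 and 109 CPM in the Trim24-deficient-labelled libraries (log2 fold change 1.19, standard error 0.18, adjusted p = 0.0332). The call on Fgr was lost without WT replicate 1 (adjusted p = 0.124), without WT replicate 2 (0.267), with library totals in place of TMM (0.0709), and in each limma fit (0.128 to 0.295). S100a8 and S100a9, which bind arachidonic acid and bring it to the oxidase, did not pass (adjusted p = 0.107 and 0.0977), with a log2 fold change of 2.21 in S100a8. S100a8 had 17.4 and 15.6 CPM in WT, against 35.1 and 118 CPM in the Trim24-deficient-labelled libraries, and the labelled libraries were far apart. Pla2g4a, the phospholipase that frees arachidonate, was at 69.7 and 65.6 CPM in WT and at 107 and 105 CPM in the Trim24-deficient-labelled libraries (log2 fold change 0.65, adjusted p = 0.2). Prkcb and Prkcd, protein kinase C isoforms that phosphorylate p47phox, had opposite signs, -0.61 (adjusted p = 0.322) and 0.28 (adjusted p = 0.643). Vav1, a Rac exchange factor, was at 0.44 (adjusted p = 0.413) and Dock2, another, at 0.05 (adjusted p = 0.943).
Of 9 genes of the other NADPH oxidases only Nox1 passed the filter and was tested, above the floor at 4.04 and 3.96 CPM in WT and at 3.62 and 1.85 CPM in the Trim24-deficient-labelled libraries (log2 fold change -0.55, adjusted p = 0.72). Nox4 had 1 count in all 4 libraries together, Nox3, Noxa1 and Duoxa1, which had no value here, were taken as 0, and Duox1 and Duox2 had at most 2 counts in a library.

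Enzymes downstream of superoxide and those that supply NADPH were compared in the same fit. Over all tested genes 12.2% had an unadjusted p under 0.05 in edgeR, 6.58% upwards. Called in either direction were 0.372% by edgeR and 1.38% by DESeq2. Of 16 genes for the removal of superoxide and peroxide, 15 were tested and 0 were called by edgeR or by limma, 1 by DESeq2, and 2 had an unadjusted p under 0.05, both higher in the Trim24-deficient-labelled libraries, Prdx5 and Gpx3. Prdx5, a peroxiredoxin of mitochondria, peroxisomes and cytosol, was at 274 and 194 CPM in WT and at 475 and 446 CPM in the Trim24-deficient-labelled libraries (log2 fold change 0.98, adjusted p = 0.138), close to the Sod2 profile. Sod1, the cytosolic copper-zinc dismutase, was level at 323 and 310 CPM in WT and 300 and 322 CPM in the Trim24-deficient-labelled libraries (log2 fold change -0.03, 95% interval -0.46 to 0.40), and Sod3, the secreted form, had at most 1 count in a library. Catalase (Cat) was at -0.15 (adjusted p = 0.784). The median of the list was 0.09.
Of 14 genes for NADPH supply, 13 were tested and 0 were called by edgeR, DESeq2 or limma. An unadjusted p under 0.05 in edgeR was found in 3, all higher in the Trim24-deficient-labelled libraries, among them Slc2a1 and Nadk. G6pdx and Pgd, the NADPH-producing enzymes of the pentose phosphate pathway, had log2 fold changes of 0.17 (adjusted p = 0.78) and -0.01 (adjusted p = 0.991). The glucose transporter Slc2a1 was at 276 and 152 CPM in WT and at 475 and 365 CPM in the Trim24-deficient-labelled libraries (log2 fold change 0.97, adjusted p = 0.221), and NAD kinase (Nadk) at 0.49 (adjusted p = 0.373).
Of 5 enzymes that act beside the burst, 3 were tested, 0 were called by edgeR, DESeq2 or limma, and 1 had an unadjusted p under 0.05. That gene was Nos2, the inducible nitric oxide synthase, at 12.5 and 2.5 CPM in WT and 45.4 and 49.5 CPM in the Trim24-deficient-labelled libraries (log2 fold change 2.65, standard error 0.49, adjusted p = 0.0697). Mpo, the neutrophil peroxidase, had no value here and was taken as 0.

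**Figure D5:**
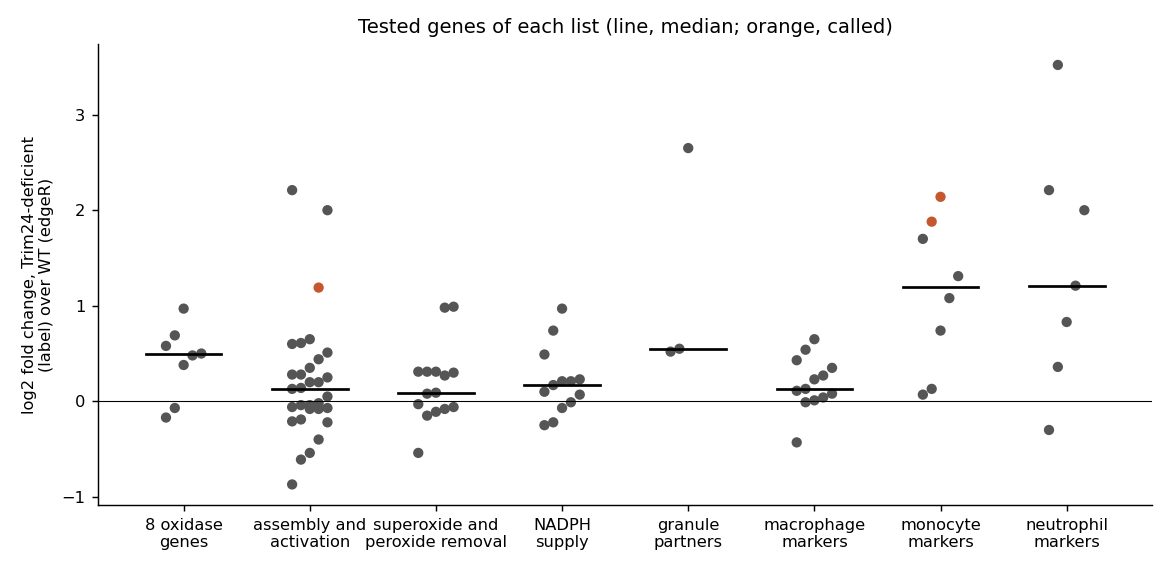
Log2 fold change, libraries labelled Trim24-deficient over WT, of every tested gene of each list (points; orange, called at more than 1.5-fold at an FDR under 0.05; line, median). The 8 oxidase genes lie between -0.17 and 0.97 with a median of 0.49, and the monocyte and neutrophil marker lists have medians of 1.19 and 1.21.

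Monocyte, neutrophil, macrophage and stroma markers had a higher summed level in both labelled libraries than in both WT libraries. After TMM scaling the sum of all genes was higher there too. It was 972700 and 932600 CPM in WT and 1047000 and 1063000 CPM in the labelled libraries. The small rise of the macrophage sum was not separated from this scaling. The sort required F4/80, which neutrophils lack. Oxidase genes are highly expressed in neutrophils and monocytes, and in RNA of a sorted pool more such cells and more transcript per cell cannot be told apart. Over all tested genes, 21.4% had both labelled libraries above both WT libraries, and 12.2% had an unadjusted p under 0.05 in edgeR. Called higher by edgeR were 0.292%, and called in either direction were 1.38% by DESeq2 and 0.207% by limma on log2(FPKM + 1). Of 15 neutrophil markers, 7 were tested, 5 had both labelled libraries above both WT libraries and 0 were called by edgeR or limma (3 by DESeq2, and 5 with an unadjusted p under 0.05). Their summed level was 189 and 231 CPM in WT and 297 and 479 CPM in the Trim24-deficient-labelled replicates 1 and 2. The defining marker Ly6g had 0 counts in both WT libraries and 1.92 and 0.822 CPM, near the floor, in the Trim24-deficient-labelled libraries. Mpo and Elane, which had no value here, were taken as 0. Of the 7 tested neutrophil markers 6 had a log2 fold change above 0. Cxcr2 went the other way, at 63.6 and 84 CPM in WT and 42.8 and 76.9 CPM in the labelled libraries (log2 fold change -0.30). S100a8 and S100a9 are on this list and on the assembly list. Of 8 monocyte markers, all were tested, 2 were called higher, among them Hp at a log2 fold change of 1.88 (adjusted p = 0.0368; 5 were called by DESeq2, 0 in each limma fit, 1 without either WT library, and 4 and 5 without replicate 1 and 2 of the other label), 6 had an unadjusted p under 0.05, and the summed level was 624 and 815 CPM in WT and 1837 and 1323 CPM in the Trim24-deficient-labelled libraries. The part of such cells in the differences of Sod2, Ncf4, Cyba and Rac2 was not tested. Of 13 macrophage markers, 0 were called by edgeR, DESeq2 or limma and 2 had an unadjusted p under 0.05, with a median log2 fold change of 0.13 and a summed level of 18280 to 20150 CPM in WT and 20620 to 21920 CPM in the Trim24-deficient-labelled libraries. T and NK cell markers stood out in 1 library, with a summed level of 456 CPM in the library labelled Trim24-deficient replicate 1 against 114 to 206 CPM in the others, the same library in which Cybb, Ncf1, Rac1, Rac2 and Sod2 had their highest values, and Itgam and Ptprc as well. B cells also use Hvcn1, Rac2 and Ncf1, and their markers summed to 162 and 153 CPM in WT and 125 and 146 CPM in the labelled libraries. Most of that sum was Blnk (68.4 to 105.8 CPM) and Cd79b (43.1 to 53.7 CPM), while Ms4a1 and Cd79a were at 0 to 1.67 CPM and Pax5, which had no value here, was taken as 0. Melanoma cell markers summed to 813 and 773 CPM in WT and 611 and 804 CPM in the labelled libraries. All 7 were tested and 0 were called by edgeR. In 4 of them both labelled libraries lay below both WT libraries, as in 23% of all tested genes. Their median log2 fold change was -0.46, while Tyr, the largest part of the sum at 375 to 496 CPM, was at 0.06. Dendritic cell markers summed to 63.8 to 105 CPM over the 4 libraries. Stroma markers summed to 21.8 and 22.9 CPM in WT and 45.8 and 33.1 CPM in the labelled libraries. Of these 8 genes only 2, Pecam1 and Kdr, were tested. The rise of the sum lay in Pecam1, at 16 and 5.63 CPM in WT and 36 and 22 CPM in the labelled libraries. Kdr went the other way (log2 fold change -0.22), with overlapping groups.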

How the data were processed

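The submitters' processing notes name Bowtie, RSEM and the GRCm38/mm10 build (versions not given in the sources used here). For each library the authors deposited the expected count of every gene, with no normalization, and an FPKM value scaled to transcript length and library total. The deposited tables also list a transcript length. A gene missing from a table was taken as 0. Of 16739 Entrez identifiers, 16698 matched a symbol in the RefSeq table of GRCm38.p6, which also gave positions. Groups came from the sample titles.

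After rounding the expected counts, edgeR 4.0.16 in R 4.3.3 was run with filterByExpr, TMM scaling, glmQLFit and glmQLFTest on the genotype label, over all 11302 genes and without a block. Calls needed more than a 1.5-fold change at an FDR under 0.05, the thresholds of the study's methods. Standard errors are the log2 fold change divided by the square root of F. The depth of 4476122 to 5172407 counts per library limits single values by counting error only. Replicates differed by more than sampling noise (chi-square over its degrees of freedom, 8.57 for the WT pair and 19.2 for the other pair). DESeq2 1.42.0, limma 3.58.1 on log2 FPKM with 1 or 0.1 added, other scalings and filters, a length correction, a replicate block and each library left out in turn were alternatives. The scripts were tested on simulated data. Members, gene lists, motifs and alternatives were chosen with earlier results of these data known. All 8 members, Cybc1, every called gene of the oxidase lists and examples of the lists were named, with the 5 genes closest in pattern to Cybb and to Sod2. A few genes of these lists are not reported here.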

Additional observations from a re-analysis of the deposited data

How the results depend on the processing

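Of the 120 log2 fold changes of the 8 members under 15 alternatives each, 1 changed sign, Rac1 at 0.19 without the library labelled Trim24-deficient replicate 2 (-0.64 without replicate 1). Members called numbered 2 with the replicate number as a block (Cyba and Sod2), 1 with DESeq2, 1 with the length trend removed under the block, and 0 to 3 with a library left out. All genes called numbered 634 with the block, 156 with DESeq2, 292 with the length trend removed under the block, 23 and 20 with limma on log2(FPKM + 1) and log2(FPKM + 0.1), 0 with limma on all genes, and 25 to 652 with a library left out, against 42. Called genes of the assembly list numbered 4, 2 and 3 with the block, DESeq2 and the length trend removed under the block, 0 with library totals and with each limma fit, and 0 to 5 with a library left out. Those of the removal list numbered 2, 1 and 1 in the same first 3 fits and 0 to 3 with a library left out. NADPH supply had 2 with the block, 1 with the length trend removed under it, and 0 to 3 with a library left out, and the granule partners had 1 in both of these fits, 1 without the filter on low counts, and 1 to 2 with a library left out. The median of the members was 0.34 with library totals, 0.33, 0.34 and 0.33 in the limma fits, and 0.30 to 0.48 with a library left out. Monocyte markers called numbered 6 with the block and 1 with library totals, against 2. The cause of these moves was not tested.

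The labels number both groups 1 and 2, and nothing says that equal numbers share a litter or day. Deviations from the group means correlated at 0.165 across genes between equal numbers. The block takes its spread from all genes alone (an infinite prior). It called no other member than those named, and its larger counts do not measure the spread of each gene.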
